A study of Mus musculus with 4 samples.

Results

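The ephrins, Slits, netrins and their receptors are the families that steer growing axons and sort cells at boundaries, and 42 of the 24062 genes in the deposited count table belong to them by symbol. The set holds the ephrin-A, ephrin-B, Slit, Eph, Robo and UNC5 genes of the table, the netrins named *Ntn* (netrin-G genes are not included), *Rgma* and *Rgmb*, together with *Dcc*, *Neo1* and *Draxin*, and it divides into 18 ligands and 24 receptors. The genes were compared between retinas of wildtype (WT) and *Nrf1*-CKO embryos at E13.5, both of a C57BL/6 129 mixed strain, with 2 libraries in each group. The *Nrf1*-CKO embryos were *Nrf1*f/f;Six3-Cre animals, in which Cre is active in progenitors of the central retina and removes a single exon of the floxed *Nrf1* allele, and the labels do not say whether the WT embryos carried a floxed allele or Cre. Retinas of multiple littermates were pooled before RNA extraction, so each library is a pool of whole retinas rather than 1 animal, and p-values measure only the spread between such pools.

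Ephrins are membrane-bound ligands of the Eph receptor tyrosine kinases. The A-type are tethered by a lipid anchor and the B-type span the membrane, and in the retina graded Eph and ephrin levels give ganglion cell axons their positional address. Slits are secreted repellents read by Robo receptors, and in the retina they keep ganglion cell axons in the optic fibre layer and shape their path to the chiasm. Netrin-1, secreted at the optic disc, attracts ganglion cell axons through DCC, whereas UNC5 receptors turn netrin into a repellent. Several of these proteins, among them Robo4, UNC5B, ephrin-B2 and EphB4, are also well known in blood vessels.

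The 4 libraries held 74577660 to 85933945 reads assigned to genes. Reads over the whole *Nrf1* gene did not differ between groups (103 and 105 CPM, that is reads scaled to library size, in WT, and 103 and 100.1 CPM in *Nrf1*-CKO), which does not test the labels, because reads from the remaining exons are counted too. The replicate libraries differed by more than counting noise (a chi-square of 47.6 per gene in WT and 59.1 per gene in *Nrf1*-CKO), so no library was a copy of its partner. Markers of other cells moved with genotype in these libraries. All 10 ganglion cell markers fell, and their summed level went from 1797 and 2031 CPM in WT to 685 and 525 CPM in *Nrf1*-CKO. Progenitor markers summed to 7379 and 7612 CPM in WT and 6595 and 6885 CPM in *Nrf1*-CKO, with 2 of 12 lower, or 1 without WT replicate 2. Markers of lens, immune, vascular, mesenchymal and pigment cells were mostly higher. The higher genes were 8 of 8 for lens (131 and 342 against 7127 and 2895 CPM), 8 of 8 for macrophages and microglia, and 7 of 10 for endothelium. For periocular mesenchyme they were 7 of 11, and for pigment epithelium 4 of the 5 tested. Below, these values are set beside guidance genes that changed in the same direction.

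Of the 42 genes, 41 had enough reads to be tested. The exception was *Ntn5*, an atypical netrin with 0 reads in both WT libraries and 4 and 2 reads in the *Nrf1*-CKO libraries. A gene was called changed at a fold of at least 1.4 with an adjusted p of at most 0.2, the limits the study used, here in edgeR's quasi-likelihood test. By this rule 10 guidance genes were lower in *Nrf1*-CKO retinas, or 24.4% of those tested, beside 8.04% of all tested genes. A further 7 were higher, or 17.1%, beside 12.8% of all tested genes. In all 17 were called, against a background of 20.9% for a call either way, and 24 were not. The 2 groups of libraries did not overlap for 31 of the 41 genes, a share to be read against 62.5% of all tested genes. When 1 library was left out, the number called lower ran from 8 to 12 and the number called higher from 5 to 6. By the GENCODE annotation 5 of the 17 called genes share exon sequence with another gene, over at most 6.01% of their exon length.

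**Figure D1:**
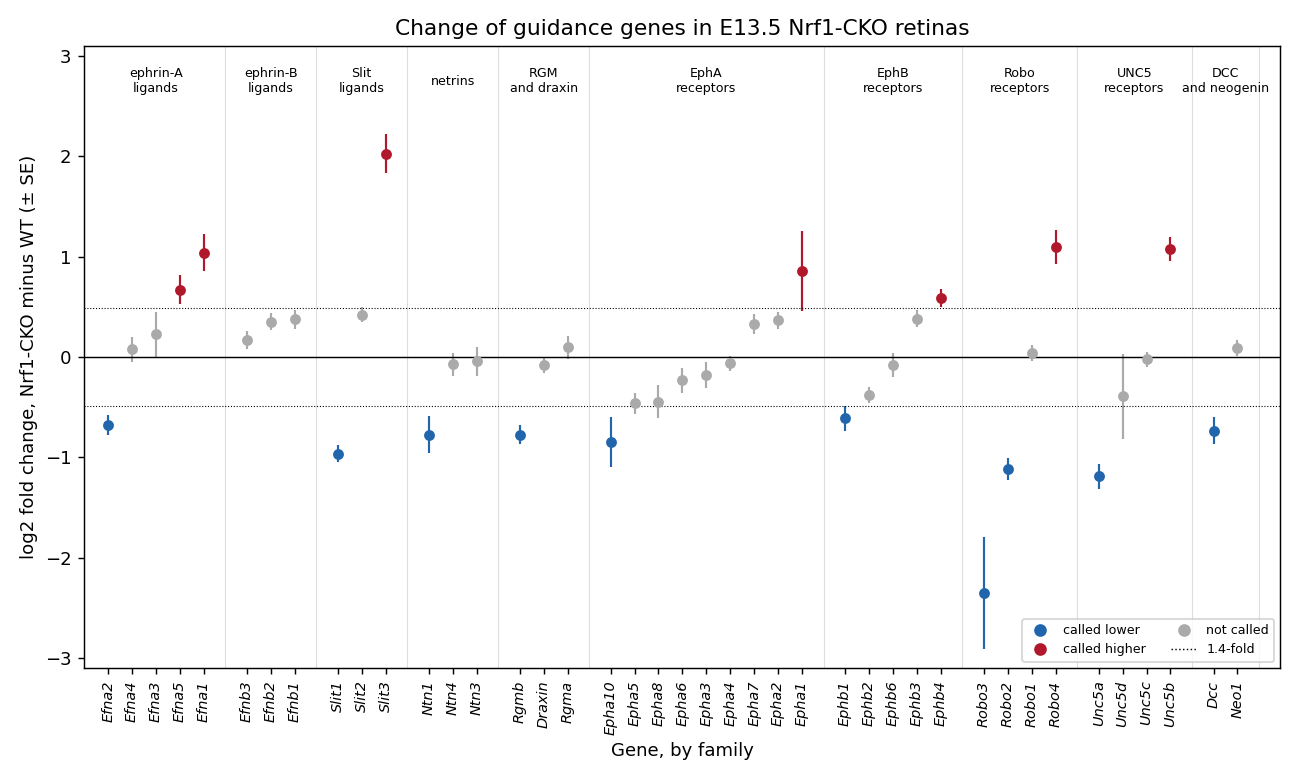
Points give the log2 fold change of each of the 41 tested guidance genes, *Nrf1*-CKO minus WT, with bars for the standard error of the edgeR fit, grouped by family and ordered by size within it, and dotted lines mark a 1.4-fold change. Genes lie on both sides of 0 in every family but the netrins and the ephrin-Bs, from *Robo3* at -2.35 to *Slit3* at 2.03, and the 3 ephrin-B genes stay above 0 and inside the dotted lines.

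*Nrf1* encodes a transcription factor that binds GC-rich palindromes, so the start-site sequences of the guidance genes were searched for 2 short motifs. RefSeq windows (GRCm38.p6, 250 bases before to 50 after a start) were at hand for 36 of the 42 genes, in 43 windows, but not for *Dcc*, *Efnb3*, *Ntn1*, *Rgma*, *Slit1* and *Unc5d*. The full palindrome, a GCGC, any 2 bases and a second GCGC, is found alike on both strands and occurred in 1 of the 43 windows, that of the netrin and RGM receptor *Neo1*, beside 6.23% of the 32851 windows of all genes. The shorter TGCGCA, also its own reverse complement and able to overlap the first motif, occurred in 3 of the 43 windows (*Efna1*, *Efna2* and *Slit3*), beside 7.76% of all windows. These sequences are shown because they carry every match before a RefSeq start, and stretches of *Robo2* and *Unc5b*, receptors that moved in opposite directions and held no match, follow for comparison. Capitals mark the matched letters, and each line reads 5′ to 3′ along the gene's strand.
Neo1, chr9:59036442-59036691, minus strand, not called: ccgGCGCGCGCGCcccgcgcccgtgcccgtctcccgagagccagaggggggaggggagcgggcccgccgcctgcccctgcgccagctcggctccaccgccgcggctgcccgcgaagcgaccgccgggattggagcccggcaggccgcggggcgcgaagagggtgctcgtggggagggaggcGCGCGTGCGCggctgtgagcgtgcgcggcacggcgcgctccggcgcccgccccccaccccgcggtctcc
Efna1, chr3:89280994-89281023, minus strand, called higher: gccttgccctgaTGCGCAgccgcaaagaag
Slit3, chr11:35121287-35121316, plus strand, called higher: caccgtgagtgaTGCGCAgcggggcagcgc
Robo2, chr16:74411826-74411925, minus strand, called lower: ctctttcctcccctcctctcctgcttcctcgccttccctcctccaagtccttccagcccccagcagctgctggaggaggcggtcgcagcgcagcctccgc
Unc5b, chr10:60831582-60831681, minus strand, called higher: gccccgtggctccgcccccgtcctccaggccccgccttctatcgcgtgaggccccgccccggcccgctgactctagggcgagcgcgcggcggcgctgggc

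The *Neo1* matches begin 247 and 69 bases before its RefSeq start, the *Efna1* match 60 bases before the RefSeq start of the second of its windows, and the *Slit3* match 157 bases before its RefSeq start. GENCODE places the starts of *Efna1* and *Slit3* further out, so by that annotation both of these matches lie inside the gene. The *Efna2* match lies 38 bases past the start, within the transcribed part, and is not printed. The genes that hold a match thus included 1 that was not called, 2 that were higher and 1 that was lower. A match is a run of letters and not a measured binding site.

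Among the ligands, the ephrin-A genes divided by member. *Efna5*, which repels axons of the temporal retina, stood at 61.8 and 54.9 CPM in WT and 108 and 77.2 CPM in *Nrf1*-CKO. Both *Nrf1*-CKO libraries lay above both WT libraries, but they were also further apart. The log2 fold change was 0.67 ± 0.14 (SE), with an adjusted p of 0.0104 in edgeR, and without *Nrf1*-CKO replicate 1 it was 0.40, under the fold limit. *Efna1*, an ephrin also known from endothelium, rose 2.06-fold, from 3.53 and 3.69 CPM to 6.50 and 8.35 CPM (log2 fold change 1.04 ± 0.19, edgeR adjusted p 0.00446). *Efna2*, a partner of ephrin-A5 in visual maps, went the other way and fell 1.61-fold, from 25.8 and 26.2 CPM to 15.8 and 16.6 CPM (log2 fold change -0.68 ± 0.10, edgeR adjusted p 0.00153). The replicates of *Efna2* were close in each group, so the gap between genotypes was many times the spread. *Efna3* and *Efna4*, at log2 fold changes of 0.23 and 0.08, were not called. As shares of the summed ephrin-A level per length (in RPKM, CPM divided by transcript length in kilobases), *Efna2* made up 28.4% and 28.1% in WT and 14.0% and 16.3% in *Nrf1*-CKO, whereas *Efna5* made up 36.0% and 31.1% against 50.9% and 40.0%.

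The ephrin-B ligands, which signal both to Eph receptors and back into their own cell, all had positive fold changes below 1.4-fold. *Efnb2*, a ligand of the dorsal retina and of arteries, was the guidance gene with the highest level per length in both groups. It stood at 281 and 312 CPM in WT and 381 and 374 CPM in *Nrf1*-CKO, without overlap, a log2 fold change of 0.35 ± 0.08 that passed the p limit (edgeR adjusted p 0.0171) but not the fold limit. *Efnb1* behaved alike at 0.37 on the log2 scale (edgeR adjusted p 0.0186), and *Efnb3* stood at 0.17 (edgeR adjusted p 0.211). Since all 3 leaned the same way, the summed ephrin-B level per length was 86.3 and 90.2 RPKM in WT and 110 and 111 RPKM in *Nrf1*-CKO.

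The Slit ligands showed the widest split of any ligand family. *Slit1* (chr19:41600257-41743665 in GRCm38), with *Slit2* one of the repellents of ganglion cell axons, fell 1.95-fold, from 73.2 and 80.2 CPM in WT to 40.2 and 38.4 CPM in *Nrf1*-CKO (log2 fold change -0.97 ± 0.08, edgeR adjusted p 0.000145). *Slit3* (chr11:35121224-35708507), the member best known outside the nervous system, rose 4.08-fold, from 3.06 and 3.14 CPM to 14.9 and 10.4 CPM (log2 fold change 2.03 ± 0.20, edgeR adjusted p 0.000243). *Slit3* was low in both WT libraries and apart from them in both *Nrf1*-CKO libraries, and it had the largest positive fold change of the 41 genes. *Slit2* stood at 211 and 206 CPM in WT and 280 and 278 CPM in *Nrf1*-CKO, with tight replicates, but its log2 fold change of 0.42 ± 0.08 (edgeR adjusted p 0.00420) stayed under the fold limit. Per length, *Slit1* went from 37.2% and 39.9% of the Slit total in WT to 18.6% and 18.5% in *Nrf1*-CKO, *Slit2* from 61.1% and 58.4% to 73.9% and 76.1%, and *Slit3* from 1.69% and 1.70% to 7.48% and 5.42%. The total itself moved little, from 34.7 and 35.4 RPKM to 38.0 and 36.7 RPKM.

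Summed per length, the netrins were the lowest of the ligand families. *Ntn1*, the netrin that draws axons out at the optic disc, stood at 20.1 and 29.3 CPM in WT and 16.1 and 12.7 CPM in *Nrf1*-CKO. The WT libraries differed from each other by more than the nearest pair of opposite libraries did. *Ntn1* was called lower at a log2 fold change of -0.78 ± 0.18 (edgeR adjusted p 0.0162), and without WT replicate 2 the value was -0.48, under the fold limit. Markers of the optic disc and stalk, where *Ntn1* is normally made, were not called, with *Pax2* at -0.18 and *Vax1* at -0.45 on the log2 scale, and their summed level was 3.36 and 3.88 CPM in WT and 3.54 and 2.37 CPM in *Nrf1*-CKO. *Ntn4*, a netrin of basement membranes, had the highest mean netrin level per length in WT, although *Ntn1* was above it in WT replicate 2, and its 15.2 and 16.7 CPM in WT overlapped the 14.9 and 15.3 CPM in *Nrf1*-CKO. *Ntn3* also overlapped, at a log2 fold change of -0.04 that changed sign when WT replicate 2 (0.08) or *Nrf1*-CKO replicate 1 (0.13) was left out.

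The repulsive guidance molecules (RGMs), lipid-anchored ligands of neogenin that also act as BMP co-receptors, differed from each other. *Rgmb* fell 1.71-fold, from 42.2 and 47.2 CPM in WT to 27.1 and 25.1 CPM in *Nrf1*-CKO (log2 fold change -0.78 ± 0.10, edgeR adjusted p 0.000637), whereas *Rgma* was not called at a log2 fold change of 0.10. *Draxin*, a secreted repellent that binds DCC and netrin, had the highest level per length of these 3 genes. Its 60.9 and 63.4 CPM in WT and 61.4 and 56.0 CPM in *Nrf1*-CKO overlapped.

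**Figure D2:**
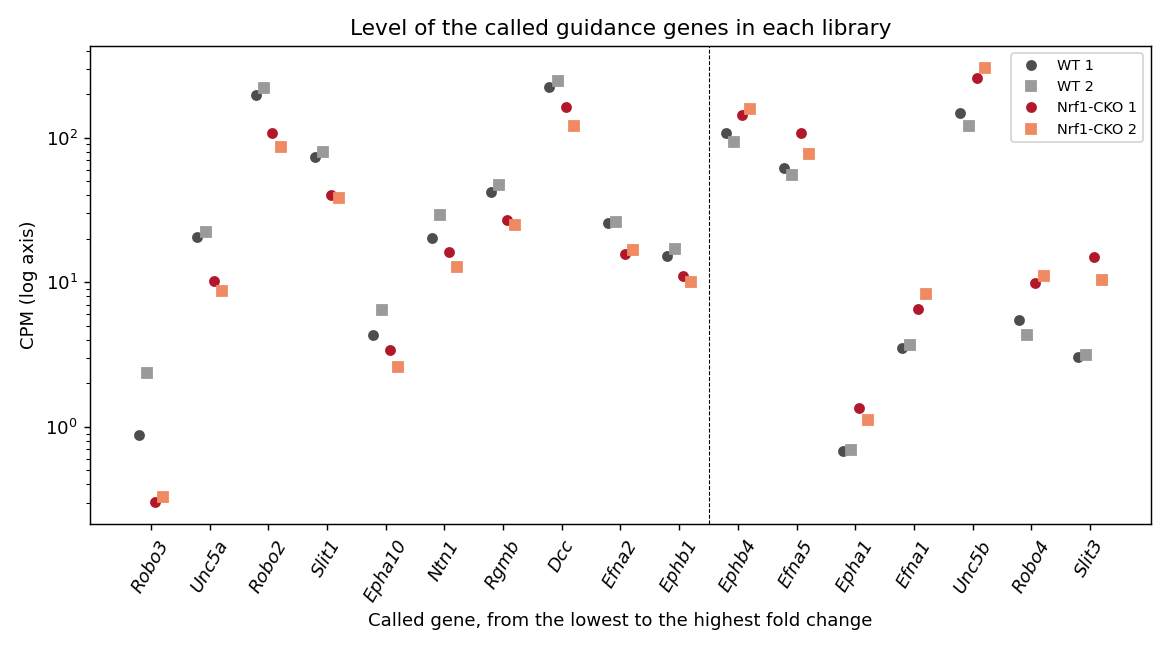
Points show CPM (log axis) in each of the 4 libraries for the 17 guidance genes called changed, ordered from the lowest to the highest fold change, with the dashed line between the 10 lower and the 7 higher genes. The groups do not overlap for any of them, and on this axis the gap between groups is smaller than the spread within a group for *Ntn1*, *Epha10* and *Efna5*.

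Most of the EphA receptors, which read ephrin-A gradients across the nasal and temporal retina, changed little. *Epha5*, the most abundant per length in WT, stood at 136 and 150 CPM in WT and 113 and 94.8 CPM in *Nrf1*-CKO. The groups did not overlap and the log2 fold change was -0.46 ± 0.10 (edgeR adjusted p 0.0109), just under the fold limit, so that the gene became a call without WT replicate 1 (-0.53) or without *Nrf1*-CKO replicate 1 (-0.60). *Epha10*, a receptor with an inactive kinase domain, was called lower. It went from 4.35 and 6.46 CPM to 3.41 and 2.59 CPM (log2 fold change -0.85 ± 0.25, edgeR adjusted p 0.0408), and without WT replicate 2 the value was -0.53, with an edgeR adjusted p of 0.277. *Epha1*, mainly an epithelial receptor, was called higher on few reads, 60 and 51 in WT and 113 and 93 in *Nrf1*-CKO. Its log2 fold change of 0.85 ± 0.40 had an edgeR adjusted p of 0.166, and it lost its call whichever library was left out. The other 6 EphA genes were not called, with log2 fold changes from *Epha8* at -0.45, a call at -0.68 only without WT replicate 1, to *Epha2* at 0.36. *Epha8*, *Epha2* and *Epha7*, the last at 0.33, passed the p limit below 1.4-fold (edgeR adjusted p 0.0837, 0.0176 and 0.0398), and *Epha6* (-0.23), *Epha3* (-0.18) and *Epha4* (-0.06) did not.

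In the EphB family the balance between members shifted while the sum stayed close. *Ephb2*, which with *Ephb3* helps ganglion cell axons reach the optic disc, had the highest level per length of the family in WT but not in *Nrf1*-CKO. It stood at 428 and 461 CPM in WT and 345 and 337 CPM in *Nrf1*-CKO, a log2 fold change of -0.38 ± 0.08 (edgeR adjusted p 0.00904) below the fold limit. *Ephb4*, the venous partner of ephrin-B2, rose 1.50-fold, from 107 and 94.1 CPM to 144 and 158 CPM (log2 fold change 0.59 ± 0.09, edgeR adjusted p 0.00206). *Ephb1*, the receptor that turns axons of the ventrotemporal retina back to their own side at the chiasm, fell 1.53-fold, from 15.3 and 16.9 CPM to 11.0 and 10.1 CPM (log2 fold change -0.61 ± 0.12, edgeR adjusted p 0.00748). For each of these 3 receptors both *Nrf1*-CKO libraries lay on 1 side of both WT libraries. *Ephb3* stood at 0.38 on the log2 scale (edgeR adjusted p 0.0130), below the fold limit, and the kinase-inactive *Ephb6* overlapped between groups at -0.09. Per length, *Ephb2* made up 46.8% and 50.5% of the family in WT and 37.8% and 34.8% in *Nrf1*-CKO, against 29.4% and 25.9%, then 39.7% and 40.9%, for *Ephb4*. The EphB total was 83.9 and 83.7 RPKM in WT and 83.7 and 88.8 RPKM in *Nrf1*-CKO.

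The Robo receptors moved both ways, and *Robo3* had the lowest fold change of the 41 genes. *Robo2* (chr16:73891839-74411825), the main Slit receptor of ganglion cell axons, fell 2.17-fold, from 198 and 222 CPM in WT to 107 and 86.8 CPM in *Nrf1*-CKO (log2 fold change -1.12 ± 0.11, edgeR adjusted p 0.000257). *Robo1*, its partner in many neurons, overlapped at 102 and 103 CPM against 109 and 100.4 CPM, so the pair did not move together. The combined effect was that *Robo2* made up 61.0% and 63.4% of the Robo level per length in WT but 43.0% and 39.3% in *Nrf1*-CKO, below *Robo1* at 49.9% and 51.7%. *Robo3*, the divergent Robo of commissural neurons that binds NELL2, had 77 and 174 reads in WT and 25 and 27 reads in *Nrf1*-CKO. The WT libraries thus differed more than 2-fold from each other, yet both lay above both *Nrf1*-CKO libraries. Its log2 fold change of -2.35 ± 0.56 (edgeR adjusted p 0.0159) ran from -2.89 without WT replicate 1 to -1.48 without WT replicate 2, where the edgeR adjusted p was 0.189. *Robo4*, the endothelial member, rose 2.14-fold, from 5.47 and 4.30 CPM to 9.87 and 11.1 CPM (log2 fold change 1.10 ± 0.17, edgeR adjusted p 0.00200). *Robo3* and *Robo4* lie tail to tail on chromosome 9 of GRCm38 on opposite strands, with 553 bases between their annotated ends, and they moved in opposite directions.

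The UNC5 receptors split in the same manner. *Unc5b* (chr10:60762593-60831581), a netrin receptor of vessels and of several neural tissues, rose 2.10-fold, from 147 and 120 CPM in WT to 258 and 305 CPM in *Nrf1*-CKO (log2 fold change 1.07 ± 0.12, edgeR adjusted p 0.00036). It was already the most abundant UNC5 gene per length and went from 69.1% and 63.2% of the family to 83.6% and 86.3%. *Unc5a* (chr13:54949411-55006018), a neuronal member, fell 2.28-fold, from 20.7 and 22.3 CPM to 10.1 and 8.73 CPM (log2 fold change -1.19 ± 0.12, edgeR adjusted p 0.000296). *Unc5c* overlapped between groups at a log2 fold change of -0.02, which was 0.02 with upper-quartile scaling, and *Unc5d*, which also binds FLRT2, overlapped at -0.39 on few reads. The summed UNC5 level per length rose with *Unc5b*, from 36.3 and 32.5 RPKM to 52.7 and 60.2 RPKM.

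*Dcc*, the receptor through which netrin-1 attracts axons, fell 1.66-fold. It stood at 226 and 246 CPM in WT and 163 and 120 CPM in *Nrf1*-CKO, a log2 fold change of -0.73 ± 0.13 (edgeR adjusted p 0.00427) that ran from -0.97 to -0.53 as single libraries were left out and kept its call each time. *Neo1*, its close relative and the receptor of the RGMs, stood at 244 and 237 CPM in WT and 247 and 263 CPM in *Nrf1*-CKO. The groups did not overlap, but the gap between the nearest libraries was smaller than the spread within either group, and the gene was not called at a log2 fold change of 0.09. *Dcc* made up 39.9% and 42.6% of the summed level of the pair per length in WT and 32.0% and 24.6% in *Nrf1*-CKO.

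**Figure D3:**
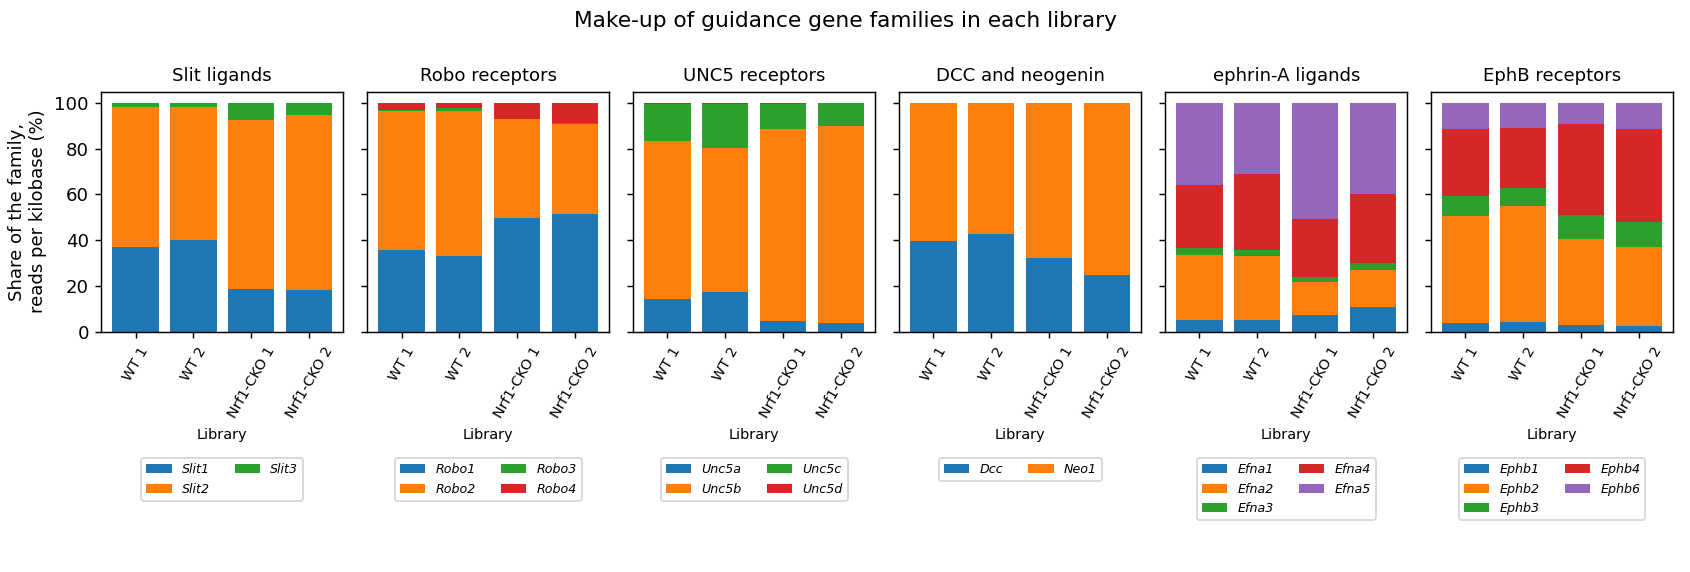
Stacked bars give the share of each member, in percent of the summed reads per kilobase of its family, in each of the 4 libraries for 6 families. *Slit1*, *Robo2*, *Unc5a*, *Dcc*, *Efna2* and *Ephb2* take smaller shares in both *Nrf1*-CKO libraries than in both WT libraries, and *Slit2*, *Slit3*, *Robo1*, *Robo4*, *Unc5b* and *Ephb4* take larger ones.

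Set side by side, ligands and receptors were called at similar rates. Of 17 tested ligands 4 were lower (23.53%) and 3 higher (17.65%), and of 24 receptors 6 were lower (25%) and 4 higher (16.67%). Over all tested genes 8.04% were lower and 12.8% higher. The median log2 fold change was 0.10 over the ligands and -0.13 over the receptors, beside 0.00073 over all tested genes. Both medians kept their sign but moved with the libraries, since the ligand median was 0.0040 without WT replicate 1 and the receptor median was -0.067 without WT replicate 1, -0.22 without *Nrf1*-CKO replicate 1 and -0.043 without *Nrf1*-CKO replicate 2. Summed per length, the ligands stood at 198 and 208 RPKM in WT and 232 and 226 RPKM in *Nrf1*-CKO, and the receptors at 269 and 274 RPKM against 270 and 273 RPKM. Within the ligands, the cell-bound ephrin-B genes carried most of the difference between those sums.

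**Figure D4:**
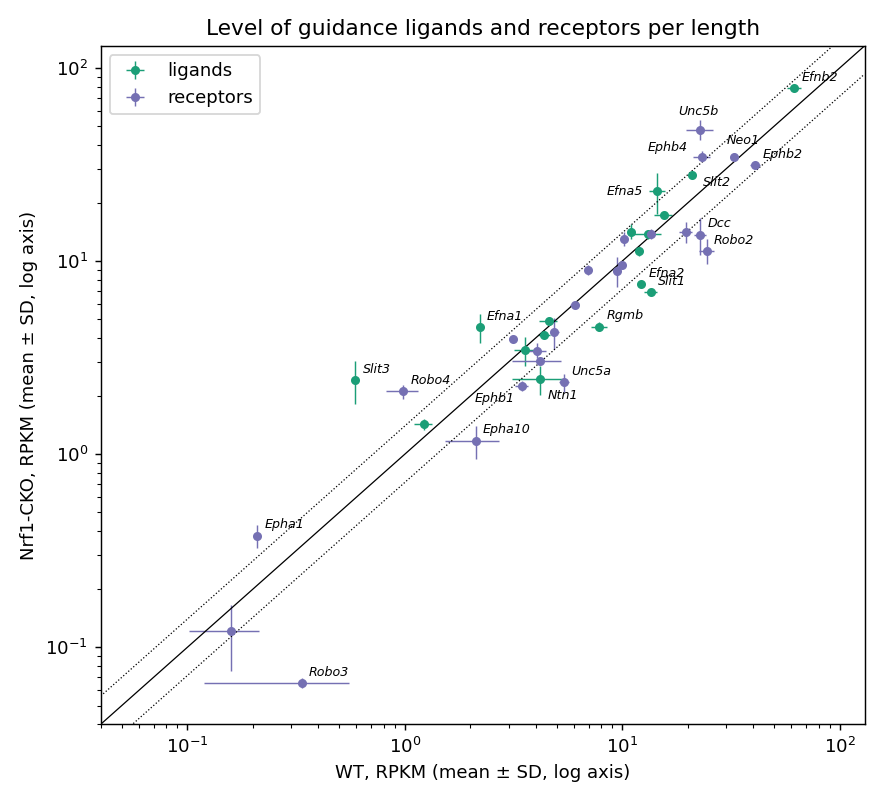
Each point is a tested guidance gene at its mean level in WT (x axis) and *Nrf1*-CKO (y axis), both in RPKM on log axes, with bars for the SD of 2 libraries; the solid line marks equal levels and the dotted lines a 1.4-fold difference. *Efnb2* is highest in both groups at 61.8 and 78.7 RPKM, *Unc5b*, *Slit3*, *Robo4* and *Efna1* lie above the dotted lines, and *Robo2*, *Robo3*, *Slit1* and *Unc5a* lie below them.

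The order of the levels changed at the top. In WT, *Efnb2* (61.8 ± 4.56 RPKM, SD, n = 2), *Ephb2* (40.8 ± 2.12 RPKM) and *Neo1* (32.6 ± 0.67 RPKM) stood apart from each other and from the rest. *Robo2* (24.5 RPKM), *Ephb4* (23.2 RPKM), *Dcc* (22.8 RPKM), *Unc5b* (22.8 RPKM) and *Slit2* (20.9 RPKM) followed, and neighbours among these 5 genes overlapped. In *Nrf1*-CKO, *Efnb2* (78.7 ± 1.03 RPKM) was followed by *Unc5b* (48.0 ± 5.60 RPKM), and *Robo2* stood at 11.3 ± 1.66 RPKM. The receptors *Ephb4* and *Neo1*, at 34.8 and 34.6 RPKM, overlapped there. At the other end, *Unc5d*, *Epha1* and *Robo3* were the lowest of the tested genes in both groups, and 38 of the 41 tested genes reached 1 CPM in every library. Annotated lengths decide this order in part, since the counting annotation was not given in the sources used here.

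Genes listed beside these receptors gave a mixed account. Of 19 genes listed with netrin and DCC, 6 were lower and 1 was higher, and the median of their log2 fold changes was -0.20. The list is broad and also holds *Lingo1*, *Lrrc4c* and the netrin-G genes *Ntng1* and *Ntng2*, so its counts are not of DCC effectors alone. The lower genes were led by *Dscam* (-1.67) and *Dscaml1* (-1.31), relatives of DCC in the immunoglobulin superfamily, and by *Lingo1* (-1.05), a partner of the Nogo receptor, and *Flrt2* (0.61), a ligand of UNC5 receptors, was the one higher. Of 13 effectors and cofactors of Slit and Robo, 2 were lower and 1 was higher, with a median of -0.10. *Nell2*, which encodes a secreted ligand of Robo3, fell from 47.1 and 58.1 CPM to 14.1 and 7.98 CPM (log2 fold change -2.26), *Srgap3*, a GTPase-activating protein bound by Robo, stood at -0.60, and *Flrt3*, a Robo1 co-receptor, stood at 0.69. Of 22 Eph effectors only *Anks1b* (-0.57) and *Chn1* (-0.51), the latter a Rac-inactivating protein downstream of EphA4, were lower, none was higher, and the median was -0.09. The lower Eph effectors numbered 0 without WT replicate 2, under glmTreat and on the deposited values. They numbered 1 without *Nrf1*-CKO replicate 2 or with upper-quartile scaling. *Anks1b*, *Chn1* and *Srgap3* did not reach a fold of 2, and *Anks1b* did not pass an adjusted p of 0.05 in edgeR. The lower Slit and Robo genes numbered 1 without *Nrf1*-CKO replicate 2 and 3 without *Nrf1*-CKO replicate 1, and the higher netrin and DCC genes numbered 2 without WT replicate 2 or *Nrf1*-CKO replicate 1. The counts in these lists can be read against 8.04% of all tested genes lower and 12.8% higher. Of the 15 tested genes listed for patterning of the retinal axes, 4 were higher and 1 was lower, with a median of 0.26. The lower gene, *Isl2*, is a gene of ganglion cells and not one that sets an axis. The higher genes numbered 6 without WT replicate 2 or *Nrf1*-CKO replicate 1, and 2 under glmTreat or at a fold of at least 2. *Bmp4* (1.50) and *Aldh1a1* (1.06) of the dorsal retina and *Aldh1a3* (0.65) of the ventral retina were among those that rose, and *Isl2* (-1.87), a transcription factor of ganglion cells that project across the midline, fell.

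Markers of particular cells changed in the same direction as several of the guidance genes. With only 2 groups this holds for any gene and marker that differ alike by genotype. The pairings below therefore rest on known expression and not on these data. The 10 lower guidance genes fell in the same libraries in which all 10 ganglion cell markers and the progenitor markers *Hes5* and *Fgf15* were lower. The study listed genes that were lower in these same libraries and enriched in ganglion cell precursors. That list holds all 10 ganglion cell markers along with *Slit1*, *Nell2*, *Dscam* and the progenitor marker *Fgf15*, but not *Hes5*. None of the listed genes is independent evidence of a direction. In bulk RNA, fewer cells of a type and less RNA per cell cannot be told apart. Of the genes known from vessels, *Robo4*, *Unc5b*, *Ephb4* and *Efna1* were called higher and *Efnb2* was not, in libraries in which 7 of 10 endothelial markers were higher and 1, *Kdr*, which retinal progenitors also express, was lower. The endothelial sum was 289 and 291 CPM in WT and 319 and 315 CPM in *Nrf1*-CKO, and without *Kdr* it was 89.2 and 79.7 CPM in WT and 175 and 178 CPM in *Nrf1*-CKO. *Slit3* and *Epha1* were higher where the lens, periocular mesenchyme (295 and 206 against 425 and 372 CPM) and pigment epithelium (205 and 144 against 374 and 395 CPM) sums were higher. Macrophage and microglia markers stood at 69.2 and 63.2 CPM in WT and 212 and 256 CPM in *Nrf1*-CKO, and erythroid markers at 481 and 566 CPM against 623 and 628 CPM, with 1 of the 6 listed genes at 0 in every library. The part that any of these cells play in the guidance gene values was not tested.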

How the data were processed

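RNA of pooled E13.5 retinas was sequenced in 2 WT and 2 *Nrf1*-CKO libraries. The authors aligned reads to mm10 with Tophat 2.7.2, summed reads per gene with HTSeq and deposited these counts. They also deposited log2 normalized values, whose method is not given in the sources used here, although the processing notes name DESeq and limma. The counting annotation and strand setting are likewise not given. HTSeq's summary rows, which held 74.0% to 75.0% of each library's counts and name no gene, were left out, leaving 24062 genes.

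Counts of 15762 genes passing edgeR's filterByExpr (minimum count 10) were scaled by TMM and tested across all 4 libraries with edgeR 4.0.16 in R 4.3.3 (quasi-likelihood, two-sided, Benjamini-Hochberg adjusted over all tested genes), with no covariate. The biological coefficient of variation was 12.0%. Standard errors were taken from the fold change and its F statistic. Cuffdiff, which the study used, needs aligned reads and was not run. CPM are TMM-scaled. Levels per length used the longest coding transcript of each gene in GENCODE M21. Each called gene and the most abundant gene of each family are given by library, and the others by fold change. The gene set and lists were chosen with earlier results of these data known. The alternatives were DESeq2 1.42.0, upper-quartile or library-size scaling, no count filter, a filter at 1 CPM, the replicate number as a block, an exact test, glmTreat, stricter limits, limma 3.58.1 on the deposited log2 values, and each library left out. The fit was tested on simulated data.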

Additional observations from a re-analysis of the deposited data

How the results depend on the processing

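The 10 lower calls became 3 at a fold of at least 2 and stood at 8 to 10 under the other alternatives that kept all libraries, and at 8 to 12 with 1 library left out. The 7 higher calls became 4 under glmTreat and 4 at a fold of at least 2, and stood at 6 or 7 otherwise, or at 5 to 6 with 1 library left out. The ligand median ran from 0.0040 to 0.14 and the receptor median from -0.22 to -0.043 with 1 library left out, and both kept their sign under every alternative. Of the 17 called genes, 7 kept their call wherever they were tested (*Robo2*, *Robo3*, *Robo4*, *Unc5a*, *Unc5b*, *Slit3* and *Efna1*), although *Robo3* was not tested with the filter at 1 CPM. The size of the change was smaller on the deposited log2 values, at -0.51 for *Robo3*, 1.13 for *Slit3*, 0.54 for *Efna1* and 0.65 for *Robo4*. A further 5 (*Dcc*, *Slit1*, *Rgmb*, *Efna2* and *Ephb4*) lost it only at a fold of at least 2 or under glmTreat. *Ephb1* and *Epha10* also lost it on the deposited log2 values, at -0.42 and -0.40. *Epha1* lost it under DESeq2, at an adjusted p limit of 0.05, on the deposited values and with any library left out. The sign turned only in genes that were not called. With 1 library left out the log2 fold change ran from -0.065 (without WT replicate 1) to 0.24 for *Efna4*, from -0.83 to 0.033 (without WT replicate 1) for *Unc5d*, from -0.066 to 0.028 (without WT replicate 2) for *Unc5c*, from -0.23 to 0.13 for *Ntn3* (0.079 without WT replicate 2 and 0.13 without *Nrf1*-CKO replicate 1), from -0.28 to 0.083 (without *Nrf1*-CKO replicate 1) for *Ephb6* and from -0.027 (without *Nrf1*-CKO replicate 1) to 0.094 for *Robo1*. With upper-quartile scaling *Unc5c* stood at 0.016. The cause of these changes was not tested. Over all genes, the 1268 lower and 2024 higher calls became 743 and 1188 under glmTreat, 565 and 1202 at a fold of at least 2, and 723 and 945 on the deposited log2 values.

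Replicate numbers are shared between the groups, but the deviations of same-numbered libraries from their group means did not go together (r = -0.0025 across 15762 genes, which are not independent replicates). With 2 libraries per group, this value cannot exclude a litter, preparation or run shared by same-numbered libraries. With the replicate number as a block, 10 guidance genes were lower and 6 higher, *Epha1* losing its call, and the medians were 0.10 for ligands and -0.14 for receptors. *Unc5d*, *Epha1* and *Robo3* were below 1 CPM in at least 1 library, so their values rest on few reads.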
